A study of Oryza sativa with 6 samples.

Results

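The regions described here are the peaks of 6 histone modifications in the first 3 Mb of rice chromosomes 11 and 12. Every peak of the 6 lists was taken whose midpoint lay under 3 Mb on either chromosome. This gave 1710 of the 82347 peaks of the series, 838 on chromosome 11 and 872 on chromosome 12. The study examined histone marks around bidirectional promoters, the intervals between neighbouring genes that are transcribed away from each other. Leaves of 2-week-old seedlings of the cultivar Nipponbare, all untreated and grown in a greenhouse, were used for chromatin immunoprecipitation with antibodies against H3K4ac, H3K9ac, H3K27ac, H3K27me3, H3K9me1 and H3K9me3, followed by sequencing. Each mark has 1 library and no second sample, so no difference below has a replicate check and no p-value is given. Intervals are 95% intervals that cover counting error only, since neighbouring peaks are not replicates.

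The beginnings of chromosomes 11 and 12 are known in rice as a pair of recently duplicated segments, which carry many of the same genes in the same order and remain very alike in sequence. Acetylation of histone H3 at lysines 4, 9 and 27 is found around the starts of transcribed genes. H3K27me3 is laid down by Polycomb complexes over genes that are kept silent, many of them regulators of development. H3K9me1 is a mark of heterochromatin and transposons in Arabidopsis, whereas H3K9me3 in that species lies mostly over genes in euchromatin.

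A peak is a region in which reads piled up above background according to the caller MACS 1.4, and its score is the value that this caller gave it. Scores were compared as percentiles within the list of the same mark, because the depth of the libraries is unknown. Because the segments resemble each other in sequence, a read can match both. The study's methods name uniquely mapped reads for read profiles around promoters, and for the peak lists the placement of reads with several matches is not given in the sources used here. The part of such reads in the likeness of the segments was not tested. Positions are given as the lists state them, without a named genome build, and no gene is named.

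Both segments were rich in acetylation compared with the rest of their chromosomes. H3K4ac had 266 peaks on the chromosome 11 segment and 289 on the chromosome 12 segment, or 8.87 (7.83 to 10) and 9.63 (8.55 to 10.8) peaks per 100 kb. The rest of chromosome 11 held 5.37 H3K4ac peaks per 100 kb and the rest of chromosome 12 held 5.16. The density of this mark was therefore 1.65 times (1.44 to 1.88) that of the rest on chromosome 11 and 1.87 times (1.64 to 2.12) on chromosome 12.

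H3K9ac, the mark with the most peaks in the segments, had 287 and 294 peaks, or 9.57 and 9.80 per 100 kb, against 5.59 and 5.50 in the rest. The ratio to the rest was 1.71 (1.5 to 1.94) for chromosome 11 and 1.78 (1.57 to 2.02) for chromosome 12. H3K27ac had fewer peaks, 93 and 104, or 3.10 and 3.47 per 100 kb, and its ratios were 1.51 (1.20 to 1.89) and 1.66 (1.33 to 2.06). All 3 acetylations thus lay above the rest on both chromosomes by more than the counting error.

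For the methylation marks no excess beyond counting error was found with all peaks. H3K27me3 had 142 peaks on the chromosome 11 segment and 124 on the chromosome 12 segment, which gave ratios of 1.19 (0.993 to 1.42) and 1.21 (0.995 to 1.46) to the rest. H3K9me1 had 32 and 42 peaks, with ratios of 0.791 (0.533 to 1.14) and 1.16 (0.819 to 1.61). H3K9me3 had 18 and 19 peaks, with ratios of 0.762 (0.442 to 1.23) and 0.769 (0.454 to 1.23). Every one of these 6 intervals included a ratio of 1, although those of H3K27me3 did so only at their lower end. When peaks scoring below 100 were left out, the H3K27me3 ratio on chromosome 12 was 1.41 (1.14 to 1.74), above 1, and that on chromosome 11 was 1.16 (0.934 to 1.42). With a segment limit of 2 Mb, however, the H3K27me3 ratios were 1.00027 on chromosome 11 and 1.00286 on chromosome 12. Against 3 to 6 Mb only, they were 1.03 (0.808 to 1.31) and 1.22 (0.928 to 1.596), and both intervals included 1.

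**Figure D1:**
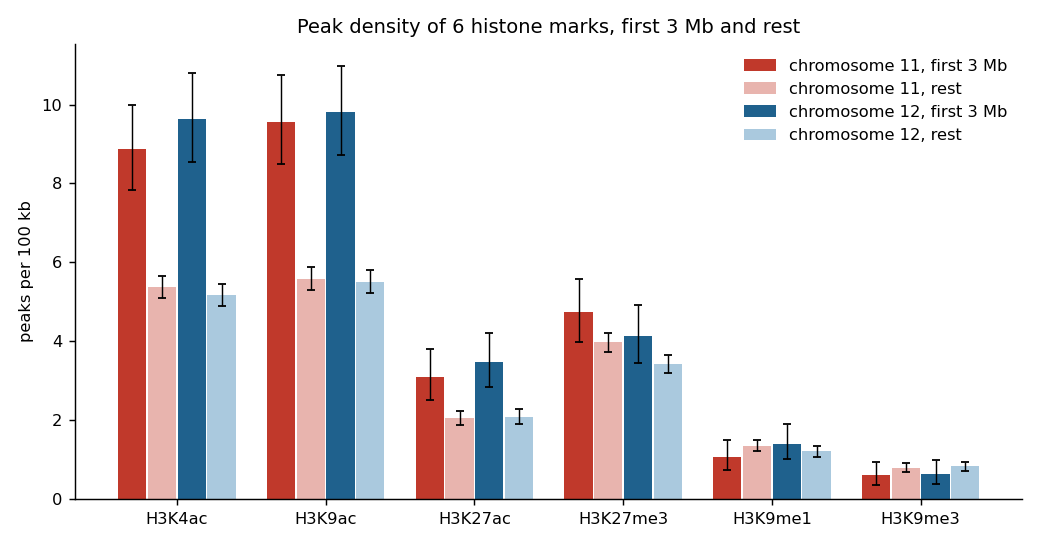
Peaks per 100 kb (vertical axis) of each mark in the first 3 Mb and in the rest of chromosomes 11 and 12, with bars for the density and error bars for the 95% Poisson interval of the count. The segment bars of H3K4ac, H3K9ac and H3K27ac stand above the bars of the rest on both chromosomes, and those of H3K9me1 and H3K9me3 overlap them within their intervals.

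The segments did not differ from each other in the number of peaks beyond counting error for any mark. The ratio of the chromosome 11 count to the chromosome 12 count was 0.920 (0.776 to 1.09) for H3K4ac, 0.976 (0.827 to 1.15) for H3K9ac and 0.894 (0.669 to 1.19) for H3K27ac. It was 1.15 (0.894 to 1.47) for H3K27me3, 0.762 (0.466 to 1.24) for H3K9me1 and 0.947 (0.469 to 1.91) for H3K9me3. The intervals of H3K9me1 and H3K9me3 were wide, since they rest on few peaks.

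The covered length differed from the rest in the same direction as the counts, except for H3K9me1 on chromosome 12. H3K4ac peaks covered 11.6% of the chromosome 11 segment and 12.6% of the chromosome 12 segment, against 6.78% and 6.42% of the rest. H3K9ac covered 9.11% and 9.85%, and H3K27ac covered 3.41% and 3.84%. H3K27me3, whose peaks are wider, covered 9.08% and 7.92% of the segments, compared with 8.08% and 6.96% of the rest. H3K9me1 covered 0.848% and 0.952%, and H3K9me3 covered 1.47% and 1.56% against 2.27% and 2.43% of the rest.

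The median widths of H3K4ac and H3K27me3 peaks were close to those of the rest. The median H3K4ac peak was 1196 bp wide on the chromosome 11 segment and 1184 bp on the chromosome 12 segment, and 1150 and 1148 bp in the rest. For H3K27me3 the medians were 1494 and 1503 bp, against 1508 and 1541 bp in the rest. H3K9ac and H3K27ac peaks were somewhat wider in the segments. Their medians were 895 and 913.5 bp against 861.5 and 843 bp for H3K9ac, and 1000 and 999.5 bp against 928.5 and 935 bp for H3K27ac. H3K9me1 peaks had a median width of 764 bp on chromosome 11 and 598 bp on chromosome 12, from only 32 and 42 peaks, against 696 and 715.5 bp in the rest. The few H3K9me3 peaks were narrower by median, 2097 and 2380 bp against 2657 and 2715 bp. Median score percentiles of the 6 marks ranged from 35.3, for H3K9me3 on chromosome 11, to 57.4, for H3K27me3 on chromosome 12, with 50 as the middle of a list.

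Other places on these chromosomes help to read the densities. When both chromosomes were divided into 18 complete blocks of 3 Mb, the segment of chromosome 12 ranked 1 and that of chromosome 11 ranked 2 for each of the 3 acetylations. The other 16 blocks held between 103 and 208 H3K4ac peaks, between 120 and 216 H3K9ac peaks and between 43 and 91 H3K27ac peaks. The blocks from 3 to 6 Mb, which adjoin the segments, came closest, with 208 and 195 H3K4ac peaks and 81 and 91 H3K27ac peaks. Against these neighbours the H3K27ac ratio was 1.15 (0.843 to 1.57) on chromosome 11 and 1.14 (0.854 to 1.53) on chromosome 12, so the H3K27ac difference was within the counting error.

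The high acetylation was shared with the beginnings of some other chromosomes, but not of all. Over all 12 chromosomes H3K4ac had 6.81 peaks per 100 kb. The first 3 Mb of chromosomes 4 and 9 held 144 H3K4ac peaks each, below the median of 150 in the other 16 blocks of chromosomes 11 and 12. The first 3 Mb of chromosomes 1 to 10 held between 144 and 292 H3K4ac peaks with a median of 235.5, and among all 12 chromosomes the segment of chromosome 12 ranked 2 and that of chromosome 11 ranked 6. H3K9ac ranked 3 and 6 and H3K27ac ranked 5 and 6, in the same order. H3K27me3 gave the highest count of the 12 on chromosome 11, with 142 peaks against 36 to 137 for chromosomes 1 to 10, and ranked 5 on chromosome 12. These ranks describe an order and carry no test.

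Along the chromosome 12 segment, the counts of acetylation and of H3K27me3 went in opposite directions. The successive megabases of that segment held 111, 109 and 69 H3K4ac peaks, 109, 112 and 73 H3K9ac peaks and 49, 35 and 20 H3K27ac peaks. For H3K4ac the interval of the third megabase (53.7 to 87.3) overlapped neither that of the first (91.3 to 134) nor that of the second (89.5 to 131). For H3K9ac the third (57.2 to 91.8) was clear of the second (92.2 to 135) and overlapped the first (89.5 to 131). For H3K27ac the third (12.2 to 30.9) was clear of the first (36.3 to 64.8) and overlapped the second (24.4 to 48.7). The same megabases held 35, 35 and 54 H3K27me3 peaks, with an interval of 40.6 to 70.5 for the last count that overlapped the 24.4 to 48.7 of the others.

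On chromosome 11 the acetylation was more even. Its megabases held 95, 84 and 87 H3K4ac peaks, 103, 99 and 85 H3K9ac peaks and 39, 27 and 27 H3K27ac peaks. H3K27me3 again had the highest count in the third megabase, with 38, 43 and 61 peaks, although the interval of the last count (46.7 to 78.4) overlapped that of the middle one (31.1 to 57.9). H3K9me1 and H3K9me3 had between 5 and 20 peaks per megabase in either segment, too few to order.

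In 100 kb windows, every window of both segments held H3K4ac and H3K9ac peaks. The 30 windows of the chromosome 11 segment held 4 to 14 H3K4ac peaks with a median of 9, and those of the chromosome 12 segment 3 to 17 with a median of 10. The windows of the rest had a median of 5 on both chromosomes. H3K4ac exceeded this median of 5 in 25 windows on chromosome 11 and 27 on chromosome 12, and H3K9ac exceeded its own in 28 on each. H3K27ac was missing from 1 window of each segment, 3.33% of them, compared with 16.2% and 16.7% of the windows of the rest.

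The windows with the most peaks lay at different distances from the chromosome end. On chromosome 11 the highest H3K9ac count was 16, in window 2, and on chromosome 12 it was also 16, in window 9. H3K4ac peaked at 14 in window 2 on chromosome 11, tied with 2 others, and at 17 in window 14 on chromosome 12. H3K27ac had its highest counts, 7 and 8, in windows 19 and 8. H3K27me3 was the exception, with 11 peaks in window 27 on chromosome 11 and 8 peaks in window 26 on chromosome 12, next to each other in order. H3K9me1 reached 3 in window 2 and 5 in window 5, and H3K9me3 reached 3 in window 2 and 3 in window 13.

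**Figure D2:**
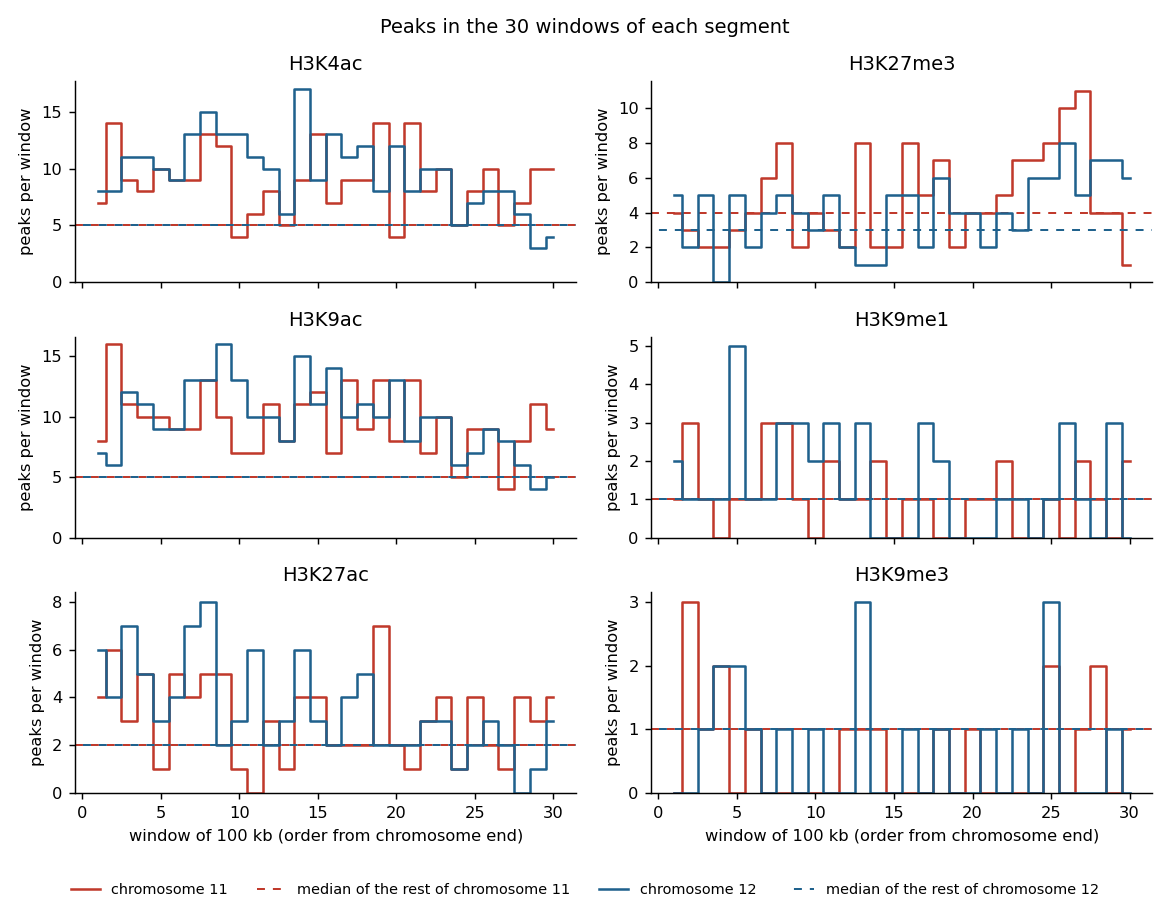
Number of peaks (vertical axis) of each mark in the 30 consecutive windows of 100 kb of the chromosome 11 and chromosome 12 segments, with dashed lines for the median window of the rest of each chromosome, in alternating colours where both are equal. H3K4ac and H3K9ac lie above the dashed lines over most of both segments, and H3K27me3 has its highest windows, with 11 and 8 peaks, near the inner end of both.

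Window counts paired by distance from the chromosome end showed at most a weak likeness in 100 kb windows. Over the 30 pairs of windows Spearman's rho was -0.04 for H3K4ac, 0.08 for H3K9ac, 0.20 for H3K27ac, 0.26 for H3K27me3, 0.01 for H3K9me1 and 0.14 for H3K9me3. The windows of a pair share a library and are not independent, so these values are descriptions only. All 6 lay within the range over 80 other pairs of 3 Mb blocks of the 2 chromosomes, which for H3K27me3 ran from -0.46 to 0.42. In 200 kb windows the H3K27me3 value was 0.49, but the range over other block pairs was not calculated for windows of that size. The most unequal window pair for H3K4ac was window 10, with 4 peaks on chromosome 11 and 13 on chromosome 12, and for H3K27me3 it was window 13, with 8 and 1.

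Since insertions and deletions shift positions, the order and spacing of peaks were then compared without fixing the distance from the end. Overlapping H3K4ac and H3K9ac peaks were merged into acetylated sites, 311 on the chromosome 11 segment and 314 on the chromosome 12 segment. Sites were chained in the same order on both, with a difference in spacing of up to 500 bp allowed between consecutive matches. A run is a series of at least 4 matches with such spacing, and sites may be skipped within it. The chain matched 158 sites, of which 114 lay in 22 runs, or 36.7% of the sites of the chromosome 11 segment and 36.3% of those of chromosome 12.

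The share of sites in runs has to be read against pairings of blocks that are not duplicates of each other. With the chromosome 12 segment read backwards, 76 sites lay in runs, or 24.4%. The chromosome 11 segment had 17.4% of its sites in runs with the other blocks of chromosome 12, and the chromosome 12 segment had 17.1% with the other blocks of chromosome 11. With the first 3 Mb of chromosomes 1 to 10, some of which are as dense in sites, the shares were 24.8% and 23.8%. Most blocks in these pairings hold fewer sites than the segments, which limits such a share. Counted as a share of the block with fewer sites, 26.1% to 37.4% lay in runs between the chromosome 11 segment and the other chromosome 12 blocks, and 20.1% to 37.0% between the chromosome 12 segment and the other chromosome 11 blocks. With chromosomes 1 to 10 it was 26.6% to 33.8% for the chromosome 11 segment and 22.3% to 37.1% for that of chromosome 12. On that scale the 36.7% of the segment pair lay within the range of the other pairings. The highest single value was 109 sites in runs, for the chromosome 12 segment with chromosome 2, close to the 114 of the segment pair.

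The 5 longest runs spanned different parts of the segments. The longest matched 9 sites between chr11:2159733-2417780 and chr12:2117690-2375624, but it skipped 11 and 17 sites on the way. Runs of 8 matches joined chr11:544339-672582 with chr12:577756-705374, skipping 6 and 11 sites, and chr11:68015-124769 with chr12:64064-120641, skipping none. Runs of 7 matches joined chr11:2451567-2689246 with chr12:2399626-2636393, skipping 15 and 13 sites, and chr11:1689635-1736049 with chr12:1645436-1692041, skipping none. Over the 22 runs the chromosome 12 position minus the chromosome 11 position ranged from -58.5 to 39.9 kb.

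Runs that skip no site were also compared. This measure, and the stretches it picked out, were chosen after the values had been seen. The longest such one-to-one runs of the segment pair held 8 and 7 sites, the pair just named. In 100 other pairings of 3 Mb blocks none held more than 6, and the longest with the chromosome 12 segment read backwards was 6. Most of these blocks hold fewer sites than the segments, which leaves fewer chances of a long run. Only 10 of the pairings joined a segment with a first 3 Mb of 280 sites or more, and their longest run was also 6. Another one-to-one run, of 4 sites, joined chr11:3266-44748 with chr12:1772-43207 and came just before the run of 8. Runs of 4 are common by themselves: the segment pair had 26 one-to-one runs of at least 4 sites, the backwards reading 24 and the chromosome 11 segment with chromosome 6 had 32.

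**Figure D3:**
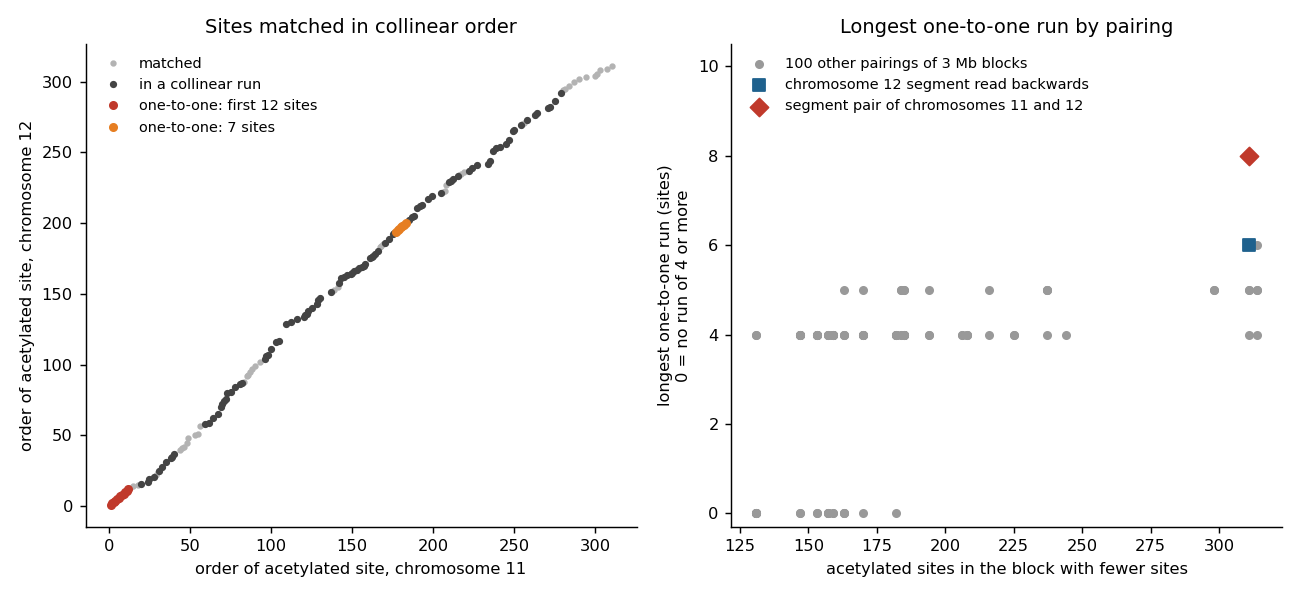
Left, acetylated sites matched between the segments by their order on chromosome 11 (horizontal axis) and chromosome 12 (vertical axis), with sites in runs and in the one-to-one stretches coloured. Right, the longest one-to-one run (vertical axis, sites) of each pairing of 3 Mb blocks against the number of sites in the block with fewer sites; the segment pair reaches 8, and the other 100 pairings and the backwards reading reach at most 6.

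With these 4 sites put before the run of 8, across an interval that exceeded the spacing tolerance, the first 12 acetylated sites of chromosome 11 stood beside the first 12 of chromosome 12 in order, over 122 kb (chr11:3266-124769) and 119 kb (chr12:1772-120641). The site nearest the end lay at chr11:3266-5099 and chr12:1772-3522. Between consecutive sites the spacing differed between the chromosomes by a median of 80 bp over 11 intervals. As an example, sites 3 and 4 were 8.49 kb apart on both chromosomes, with a difference of 4.5 bp. The largest difference, 2338 bp, fell between sites 4 and 5, and the next largest was 313.5 bp. All differences but the largest had been capped in advance by the spacing tolerance, so their small size follows in part from the matching.

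Partner sites of this stretch were also alike in width, which the matching had not used. The ratio of the wider to the narrower partner had a median of 1.04 and was at most 1.12 over the 12 pairs. The widest site was 3401 bp (chr11:78853-82253) and 3485 bp (chr12:74595-78079), and it was site 6 on both chromosomes. The narrowest on chromosome 11 was site 4, of 975 bp, whose partner was 1022 bp. On chromosome 12 the narrowest was site 11, of 995 bp, whose partner was 1113 bp.

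The scores of the H3K4ac peaks were close as well. Site 2 had a score of 790.74 on chromosome 11 (chr11:14020-16379) and 789.04 on chromosome 12 (chr12:12404-14734), both at percentile 99.5 of the list. Site 5 had the lowest score in the stretch on both, 64.4 and 68.33, at percentiles 11 and 13.6. Over the 12 pairs the percentiles differed by a median of 4.46 and by at most 14.1 points, and Spearman's rho was 0.97. These 12 pairs come from 1 library and 1 stretch, so the rho is a description only. H3K9ac scores were less alike, with a median difference of 7.31 points, a rho of 0.46 over 10 partner pairs and a largest difference of 55.0 points at site 2, where 2 chromosome 11 peaks had the same chromosome 12 partner. Counted by site instead of by peak, the H3K9ac rho was 0.82 over 9 pairs.

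All 12 H3K4ac peaks of each chromosome had a partner on the other, that is, a peak of the same mark that overlapped them after chromosome 12 positions were moved by interpolation between partner sites. For H3K9ac, which also defined the sites, 10 of 12 peaks on chromosome 11 and 9 of 9 on chromosome 12 had one. Site 2 carried 2 H3K9ac peaks on chromosome 11, chr11:14139-15023 and chr11:15073-16282, and a single one on chromosome 12, chr12:12491-14572. Site 11 had H3K4ac but no H3K9ac on either chromosome. Sites 4 and 10 carried H3K9ac on chromosome 11 only, in peaks of percentile 13.8 and 27.2.

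Partners were also found for marks that had not been used for matching. H3K27ac had 6 peaks on chromosome 11 and 8 on chromosome 12, and 6 on each side were partners. They lay on sites 1, 2, 6, 7, 9 and 12, with the highest percentile at site 2 on both (96.1 and 96.7) and the lowest at site 7 on both (13.4 and 10.2). Percentiles differed most at site 12, with 57.2 and 93.6, and at site 1, with 71.2 and 88.8. The 2 H3K27ac peaks without a partner, at chr12:64048-65129 and chr12:96530-97306, lay on sites 5 and 8.

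H3K27me3 had 4 peaks on chromosome 11 and 5 on chromosome 12, of which 4 pairs were partners. The first pair, chr11:6729-12597 and chr12:5090-11060, was 5869 and 5971 bp wide, at percentiles 87.0 and 81.6, and filled much of the space between sites 1 and 2. The second, between sites 2 and 3, was 2108 and 2045 bp wide, at percentiles 79.9 and 81.7. The fourth overlapped site 5 and was 3899 and 3791 bp wide, at percentiles 76.4 and 75.1.

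The third H3K27me3 pair differed more. The peak chr11:61428-64910 was 3483 bp wide at percentile 85.7, and its partner chr12:55381-60930 was 5550 bp wide at percentile 51.9. It lay between sites 4 and 5, the interval with the largest difference in spacing. The H3K27me3 peak without a partner, chr12:44588-45035, was 448 bp wide with a score of 53.34, at percentile 2.33.

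The marks of H3 lysine 9 methylation were few in this stretch. H3K9me1 had 2 peaks on chromosome 11 and 3 on chromosome 12, and 2 of each were partners, chr11:84338-85032 with chr12:80202-81147 and chr11:108371-109224 with chr12:104616-105029. The single H3K9me3 peak, chr11:108285-110119, overlapped one of them on chromosome 11 and had no partner. Its score of 56.59 lay at percentile 34.7 of its list.

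Over the 4 marks not used for matching, 12 of 13 peaks on chromosome 11 (92.3%, 64.0 to 99.8) and 12 of 16 on chromosome 12 (75%, 47.6 to 92.7) had a partner. With all 6 marks it was 34 of 37 and 33 of 37, but these counts include the H3K4ac and H3K9ac peaks that made the matched sites. The 7 peaks without a partner had percentiles of 2.33 to 64.4, and 6 of them lay at percentile 34.7 or lower. The backwards runs gave partners to 7 of 138 peaks of the same 4 marks on chromosome 11, or 5.07% (2.06 to 10.2). These shares are not like for like, because the backwards runs can skip sites and the stretch was picked for skipping none. Even H3K4ac peaks had a partner in only 70 of 127 cases on chromosome 11 in the backwards runs.

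**Figure D4:**
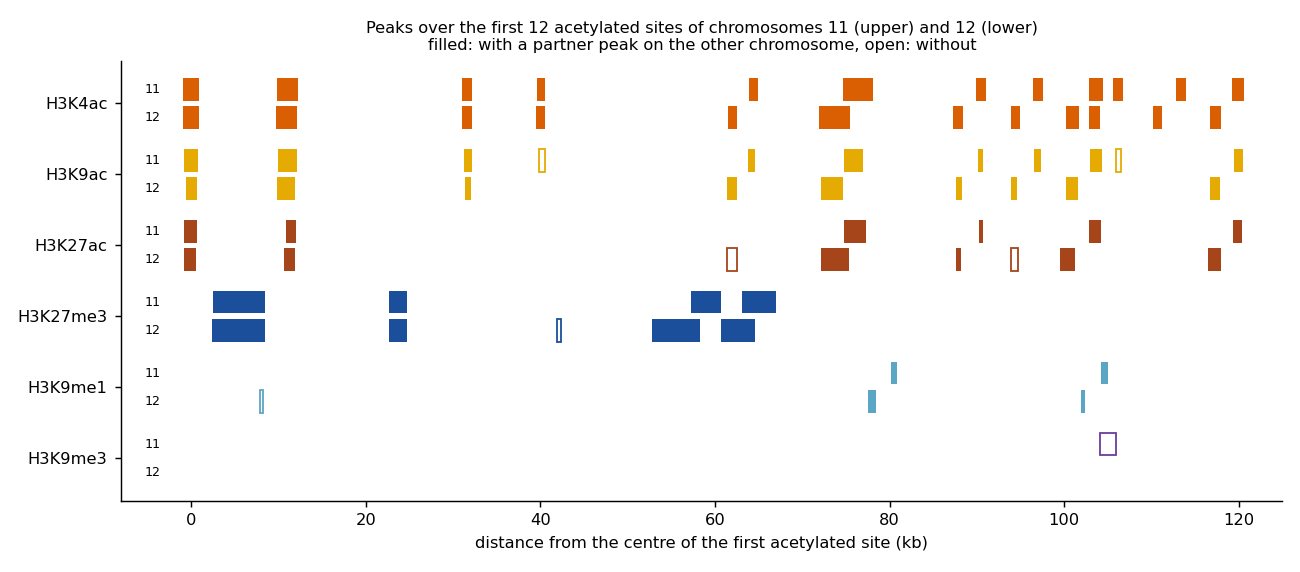
Peaks of the 6 marks over the first 12 acetylated sites, drawn to scale by distance in kb from the centre of the first site, with chromosome 11 above chromosome 12 in each row. Filled bars have a partner of the same mark on the other chromosome and open bars do not: 34 of 37 bars on chromosome 11 and 33 of 37 on chromosome 12 are filled, and the third H3K27me3 pair and all later bars are shifted to the left on chromosome 12. H3K4ac and H3K9ac peaks made the matched sites, so their filled bars follow largely from the matching.

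The other one-to-one stretch, of 7 sites, lay further from the chromosome end and was 46.4 kb long on chromosome 11 (chr11:1689635-1736049) and 46.6 kb on chromosome 12 (chr12:1645436-1692041). Its first sites were offset by -44.0 kb. Spacing differed by a median of 122.75 bp over 6 intervals and by at most 271.5 bp. These differences too had been capped in advance by the spacing tolerance. The last interval, the longest, was 20.1 kb on chromosome 11 and 19.9 kb on chromosome 12.

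In this stretch 16 of 18 peaks on chromosome 11 and 16 of 17 on chromosome 12 had a partner. Most of these were H3K4ac and H3K9ac peaks, which had made the matched sites, so their partners follow largely from the matching. Of the 4 marks not used for matching, 3 of 4 peaks on each chromosome had a partner (75%, 19.4 to 99.4). Both H3K27ac peaks of each chromosome were partners, on sites 2 and 6, at percentiles 13.3 and 71.7 for the first pair and 44.9 and 35.6 for the second. An H3K27me3 peak of 1763 bp, chr11:1704091-1705853, had the partner chr12:1660513-1661754 of 1242 bp, at percentiles 83.0 and 75.6. Another H3K27me3 peak, chr11:1699452-1700882 at percentile 60.5, had none.

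Here the partner sites and their H3K4ac peaks were less alike in width than in the first stretch, while the H3K9ac peaks were more alike in width but not in score. The ratio of the wider to the narrower site had a median of 1.12 and reached 1.47. For H3K9ac partners the ratio had a median of 1.07 and reached 1.25, against 1.21 and 2.35 in the first stretch. The 2.35 came from site 2 of that stretch, where neighbouring chromosome 11 peaks had the same chromosome 12 partner. H3K9ac percentiles differed by a median of 9.08 points here, against 7.31 in the first stretch. Their rho was -0.09 over 6 pairs. H3K4ac percentiles differed by a median of 14.8 points, and the ranks of widths and of H3K4ac percentiles gave a rho of -0.11 and 0.36 over 7 pairs. The percentiles of all 7 H3K4ac peaks lay between 51.7 and 71.8 on chromosome 11 and between 26.2 and 69.8 on chromosome 12, a narrower range than in the first stretch.

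**Figure D5:**
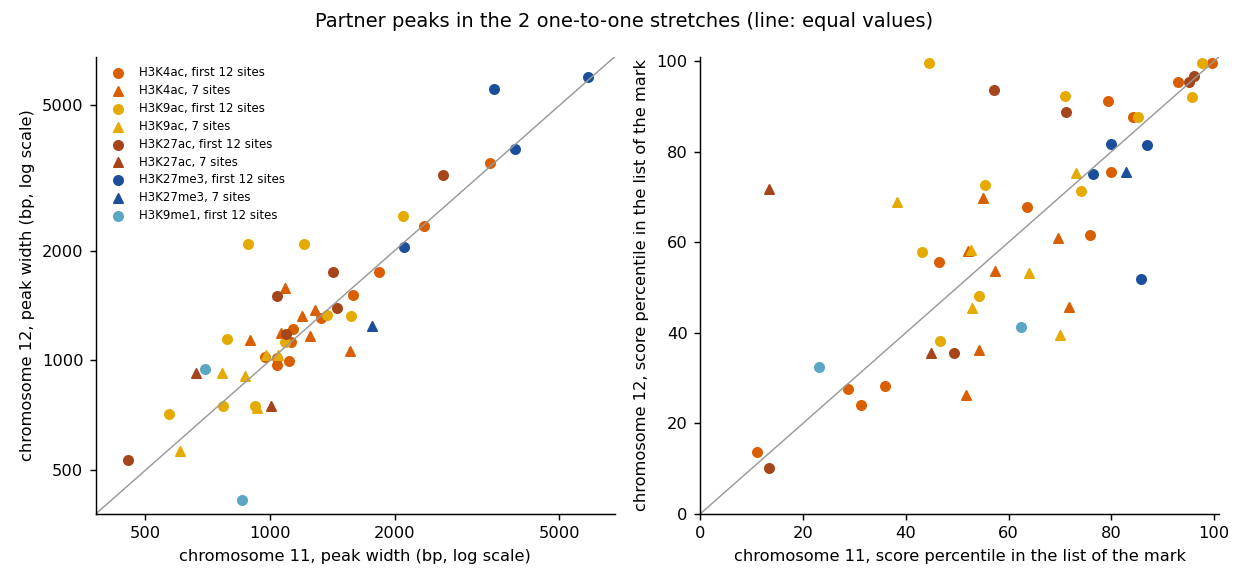
Width in bp (left, log axes) and score percentile within the list of the mark (right) of partner peaks on chromosome 11 (horizontal axis) and chromosome 12 (vertical axis), with circles for the stretch of the first 12 sites, triangles for the stretch of 7 sites and a line of equal values. The H3K4ac circles lie close to the line, at a median width ratio of 1.04, and the H3K4ac triangles lie further from it, at 1.12. For H3K9ac widths the circles lie further from the line, with ratios up to 2.35 against 1.25 for the triangles. The 2.35 is from neighbouring chromosome 11 peaks with the same chromosome 12 partner.

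Outside both stretches the matched sites showed little agreement in other marks. Of 95 matched pairs in the remaining runs, 53 had the same H3K27ac state on both chromosomes, or 55.8% (45.2 to 66.0), and the shares of sites with H3K27ac on each chromosome alone give 58.5%. For H3K27me3 the agreement was 75.8% against 75.3% from the shares alone. In both stretches together, 17 of 19 pairs agreed in H3K27ac, or 89.5% (66.9 to 98.7), against 49.6% from the shares.

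The same contrast appeared in the peaks themselves. In runs outside both stretches, 19 of 152 peaks of the 4 marks not used for matching had a partner on chromosome 11, or 12.5% (7.70 to 18.8), which lay above the 5.07% of the backwards runs with overlapping intervals. Sites can be skipped in these runs but not in the stretches, and 91 of 163 H3K4ac peaks on chromosome 11 had a partner in them. No H3K9me1 or H3K9me3 peak in these runs had a partner on the other chromosome, out of 12 and 17 H3K9me1 peaks and 8 and 10 H3K9me3 peaks on chromosomes 11 and 12. The rho of site widths was 0.16 over 95 pairs, and that of H3K4ac percentiles was 0.09 over 76 pairs.

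Of 36 overlaps between marks that were compared with the rest of both chromosomes, 3 had intervals apart from those of the rest: H3K27ac with H3K9ac, H3K9ac with H3K27me3 and H3K4ac with H3K9me1. Of the 197 H3K27ac peaks of both segments, 194 overlapped H3K9ac by at least 1 bp, or 98.5% (95.6 to 99.5), against 93.2% (91.5 to 94.6) of 1045 in the rest. The overlap of H3K27ac with H3K4ac was 97.0% (93.5 to 98.6) against 92.9% (91.2 to 94.3). H3K4ac overlapped H3K9ac in 90.3% (87.5 to 92.5) of 555 peaks, against 86.6% (85.2 to 87.8). H3K4ac met H3K9me1 in 0.721% (0.281 to 1.84) of its peaks, against 2.70% (2.15 to 3.39).

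H3K27me3 overlapped 11.9% (9.49 to 14.8) of the 581 H3K9ac peaks, against 17.2% (15.9 to 18.7) in the rest, and 11.9% (9.46 to 14.9) of the H3K4ac peaks, against 15.3% (14.0 to 16.7), where the intervals overlapped. Counted from H3K27me3, 25.9% of its peaks met H3K9ac and 24.8% met H3K4ac, against 25% and 22.0% in the rest. Of the 266 H3K27me3 peaks, 64.7% overlapped no other mark, close to the 65.7% of the rest. H3K9me3 overlapped H3K9me1 in 12 of 37 peaks, or 32.4% (19.6 to 48.5), compared with 31.2% in the rest.

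Between the segments, 1 of the same 36 overlaps had intervals that did not overlap, the share of H3K9ac peaks that stood alone. On chromosome 11, 34 of 287 H3K9ac peaks overlapped none of the other 5 marks, or 11.8% (8.60 to 16.1), whereas on chromosome 12 it was 15 of 294, or 5.10% (3.12 to 8.25). For H3K27me3, 71.8% (63.9 to 78.6) of the chromosome 11 peaks and 56.5% (47.7 to 64.9) of the chromosome 12 peaks overlapped no other mark, with intervals that overlapped. The shares alone on chromosomes 11 and 12 were 9.02% and 7.61% for H3K4ac, 0% and 0% for H3K27ac, 65.6% and 71.4% for H3K9me1 and 50% and 47.4% for H3K9me3. H3K27me3 overlapped H3K9ac in 21.1% (15.2 to 28.6) and 31.5% (23.9 to 40.1), with overlapping intervals.

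The strongest acetylated peaks of the segments were among the highest of their lists. On chromosome 11, chr11:1886668-1888328 had the highest H3K4ac score, 1059.98, which was rank 13 of 25425, and it overlapped the highest H3K9ac peak of that segment, chr11:1886779-1888154. On chromosome 12, chr12:515178-517017 had an H3K4ac score of 976.07, rank 30, and again overlapped the highest H3K9ac peak, chr12:515294-516811, rank 59 of 26693. Both places also carried H3K27ac. The highest H3K27ac scores lay elsewhere, 286.44 at chr11:2970753-2972002 and 294 at chr12:1095631-1098231.

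The widest acetylated peaks also coincided between marks. On chromosome 12, H3K4ac was 4368 bp wide at chr12:1001189-1005556 and H3K9ac 3839 bp wide at chr12:1001882-1005720, with H3K27ac over both. On chromosome 11 the widest, 3795 bp at chr11:822207-826001 and 2709 bp at chr11:823274-825982, had modest percentiles of 30.1 and 35.6 and no H3K27ac. The widest H3K27ac peaks were 2812 bp (chr11:2841891-2844702) and 3217 bp (chr12:74797-78013), and the latter lay on site 6 of the first stretch.

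The H3K27me3 peak of highest score in the segments was chr12:1545785-1547359, with 1373.32 and rank 29 of 12959, and it overlapped no other mark. On chromosome 11 it was chr11:910702-912310, with 1066.03, which overlapped H3K9ac. The widest H3K27me3 peaks were 8472 bp at chr11:2578999-2587470, with a percentile of only 6.56, and 7148 bp at chr12:1143390-1150537, at percentile 67.8. Neither overlapped another mark.

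The H3K9 methylation marks had their strongest peaks together on chromosome 11 and apart on chromosome 12. On chromosome 11 the highest H3K9me1 peak, chr11:163546-165251 with a score of 218.31, and the highest H3K9me3 peak, chr11:163392-165386 with 133.79, overlapped each other and also H3K4ac and H3K9ac. On chromosome 12 the highest H3K9me3 peak, chr12:2257542-2259980 with 98.05, overlapped the widest H3K9me1 peak, chr12:2257603-2259455, and no acetylation. The highest H3K9me1 peak there, chr12:2178149-2179247 with 204.27, stood alone, as did the widest on chromosome 11, 2279 bp at chr11:1217109-1219387. The widest H3K9me3 peaks were 4285 bp (chr11:1754569-1758853) and 4789 bp (chr12:1202294-1207082), the latter over H3K27me3. No region of either segment was covered by peaks of all 6 marks.

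The limit of 3 Mb fell between peaks of ordinary kind. The last H3K4ac peaks inside were chr11:2987606-2988581 and chr12:2979766-2980857, with scores of 83.47 and 158.28, and the first outside were chr11:3019255-3021332 and chr12:3013179-3013806, with 109.04 and 51.64. For H3K27me3, the peaks nearest the limit on chromosome 12 were chr12:2996029-2996867 inside, with a score of 208.77, and chr12:3006822-3008544 outside, with 524.43. The sparsest mark, H3K9me3, had its last peaks inside at 68.4 and 110 kb before the limit.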

How the data were processed

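ChIP-seq peaks of 6 histone modifications in leaves of Nipponbare seedlings were analysed, 1 library per mark. The authors aligned the reads with Bowtie, per the labels, and called peaks with MACS 1.4, per the peak names. The study took its gene pairs from the TIGR rice annotation and used uniquely mapped reads for profiles around promoters. For the peak lists, the build, settings, control library, read depth and treatment of reads with several matches are not given in the sources used here. The deposited score is the value MACS gave each peak, and it was used only as a rank within a list or as a minimum.

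A peak was assigned by its midpoint. The rest of a chromosome ran from 3 Mb to the end of its last peak. Densities have exact Poisson intervals, ratios and shares of partners exact binomial (Clopper-Pearson) intervals, and overlaps Wilson intervals, all at 95%. Acetylated sites were chained with 1 point per match; a spacing difference over 500 bp cost 1 point plus 1 for each 20 kb, and consecutive matches lay at most 300 kb apart. Partner peaks are defined in the text. Regions were named by a rule: the highest and the widest peak of each mark and segment, the window with the most peaks, the 5 longest runs, the peaks next to 3 Mb and regions with all 6 marks. The alternatives tried are given in the closing section. The members and measures were chosen with earlier results of these data known. The chaining, the one-to-one runs, the ratio interval and the overlap were tested on simulated or constructed data with known answers. A gene table of another assembly was not used. Calculations were run in Python 3.11.15 with pandas 2.3.3, scipy 1.17.1 and numpy 2.4.6, and figures were drawn with matplotlib 3.10.9.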

Additional observations from a re-analysis of the deposited data

How the results depend on the processing

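No paired analysis was possible because each mark has 1 library. Of the alternative values, 133 stayed within the interval of the reported value (for the longest run, within 1.5 times of it), 54 left it, and the 42 with peaks closer than 200 bp merged all stayed within it. No value whose interval lay clear of no change crossed it, and 7 values whose interval included no change did. With a score of at least 100 these were the ratio of the segments for H3K27ac (1.16) and H3K27me3 (0.972), the H3K9me1 ratio to the rest on chromosome 11 (1.06) and the window rho of H3K4ac (0.17) and H3K9me1 (-0.20). The others were the H3K4ac rho in 200 kb windows (0.02) and the H3K9me1 ratio on chromosome 12 against windows with at least 5 H3K9ac peaks (0.974). With a score of at least 100, peaks per 100 kb on chromosomes 11 and 12 were 6.23 and 7.13 for H3K4ac, 6.13 and 6.67 for H3K9ac, 1.20 and 1.03 for H3K27ac, 0.2 and 0.2 for H3K9me1, 0.0333 and 0 for H3K9me3, and 3.43 for H3K27me3 on chromosome 11. The covered share was then 8.74% and 9.85% for H3K4ac, 6.40% and 7.19% for H3K9ac, 1.60% and 1.49% for H3K27ac, 0.201% and 0.239% for H3K9me1, 0.0665% and 0% for H3K9me3, and 7.25% for H3K27me3 on chromosome 11. These values are lower by construction, since fewer peaks enter. On chromosome 12 the ratio to the rest was then 1.31 (0.864 to 1.92) for H3K27ac, no longer clear of 1, and 0 for H3K9me3, and the ratio of the segments for H3K9me3 has no value, with 1 and 0 peaks. The overlap of H3K4ac with H3K9ac was 82.8%, that of H3K27me3 with H3K9ac 13.4% and with H3K4ac 15.8%, and that of H3K9me3 with H3K9me1 100%, from 1 peak. Agreement in H3K27ac over all matched pairs in runs was 78.3%, against 61.4% with all peaks, where the shares alone give 56.0%. The value from the shares was not calculated at this score. Since fewer H3K27ac peaks entered, the rise cannot be read as closer agreement. With a limit of 2 Mb, chromosome 12 had 11 H3K4ac and 11.05 H3K9ac peaks per 100 kb and a covered share of 14.7% for H3K4ac, 11.5% for H3K9ac and 4.73% for H3K27ac. Against 3 to 6 Mb only, the ratios to the rest on chromosomes 11 and 12 were 1.28 and 1.48 for H3K4ac, 1.33 and 1.41 for H3K9ac, and 1.15 and 1.14 for H3K27ac, whose intervals then included 1, and the H3K9me1 ratio on chromosome 11 was 0.604 (0.377 to 0.954), now below 1. Against windows of the rest with at least 5 H3K9ac peaks they were 1.28 and 1.44, 1.275 and 1.34, and 1.13 and 1.21. The shares of sites in runs on chromosomes 11 and 12 were 20.3% and 20.1% at 250 bp, 51.8% and 51.3% at 1000 bp, 16.4% and 16.2% for runs of at least 6 matches, and 28.6% and 24.8% with the minimum score, and the backwards reading moved with them, from 48 sites at 250 bp to 131 at 1000 bp. The cause of these shifts was not tested.

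The settings of the one-to-one runs were added after seeing the data. At 250 bp the longest runs held 7 sites in the first stretch and 5 in the stretch of 7 sites, with at most 4 backwards. At 1000 bp they held 8 and 7, and the backwards reading also reached 7. With the minimum score the order turned, with 5 sites and 7 sites, and 4 backwards. With 1 library per mark and unknown depth, counting error is the only error known, and differences between marks in the number of peaks can reflect the libraries.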
